A study of Mus musculus with 4 samples.

Results

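Interferon-stimulated genes are the genes that cells switch on when interferons, the signalling proteins released after infection, bind their receptors. A set of 49 of them, taken by symbol from 27207 gene symbols on a list chosen with earlier results of these data known, was followed through 4 RNA sequencing libraries of cultured cardiomyocytes from CD1 mice at postnatal day 1. The libraries, 1 of each kind, came from mock-transfected cells, from cells given cel-miR-67, a Caenorhabditis elegans microRNA widely used as a control mimic, and from cells given a mimic of a human microRNA, either hsa-miR-590-3p or else hsa-miR-199a-3p. Mimics were used at 50 nM in a reverse transfection with Lipofectamine RNAiMAX, a lipid reagent, and RNA was collected after 72 h. Total RNA that included small RNA was made into libraries with the Illumina TruSeq kit. All 4 conditions share the strain, the age, the cell type and the collection time, and the labels name no dish, animal or culture date for any of them. With 1 library per condition no difference has a replicate check, and no test or p-value was possible.

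Cells make interferon after sensor proteins detect foreign or misplaced RNA or DNA. Type I and type III interferons signal through the kinases Jak1 and Tyk2 to a complex that contains Stat2 and Irf9 and binds the interferon-stimulated response element (ISRE) of their target promoters. Interferon-gamma, the type II form, signals through Jak1 and Jak2 to another element, the gamma-activated site (GAS). The proteins made in response block viral entry, translation and RNA synthesis, attack the vacuoles of intracellular microbes, and raise antigen presentation. In the heart this response limits viral myocarditis, and cardiac myocytes both make type I interferon and respond to it.

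The sequences that bear on the group are the microRNA that could be read from the reference and the promoter elements the members share. The mature mouse miR-199a-3p in RefSeq, shown with its seed (bases 2 to 8) in capitals because targets are read mostly through the seed, is as follows.
miR-199a-3p: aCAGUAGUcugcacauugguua
RefSeq promoter windows (GRCm38.p6, 250 bases before to 50 after the annotated start) were matched for 37 of the 49 genes and searched on both strands for the ISRE core GAAANNGAAA, which reads TTTCNNTTTC on the opposite strand. The core was present in 19 of the 37 genes (51.4%) and in 1079 of all 27025 genes with a window (3.99%). It occurred 27 times, 7 genes held it more than once, and 16 genes held it wholly upstream of the start, between positions -222 and -5. Its most frequent form was GAAACTGAAA, which made up 10 of the 27 matches (37.0%) against 77 of 1210 matches over all windows (6.36%). The GAS letters TTCNNNGAA, the same on both strands, were found in 10 of the 37 genes (27.0%) and in 2582 of all genes (9.55%), and in Bst2 they overlap the ISRE core. These matches are descriptions of letters, not of occupied sites.

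Stretches around the core are printed 5′ to 3′ on the strand of the gene, with core matches in capitals, for genes whose levels are described below. Isg15 (chr4:156200855-156200916, minus strand), Bst2 (chr8:71537567-71537622, minus) and Oas1a (chr5:120907526-120907565, minus) carry overlapping matches. Ifit1 (chr19:34640765-34640833, plus) and Ifit3 (chr19:34583353-34583436, plus) each carry a pair in the opposite orientation. The GTPase genes Igtp (chr11:58199502-58199551, plus), Irgm2 (chr11:58214893-58214942, plus) and Tgtp1 (chr11:48992294-48992343, minus) are printed to compare their stretches. Irgm1, of the same family, also holds the core but was not compared, so their likeness does not describe the family.
Isg15: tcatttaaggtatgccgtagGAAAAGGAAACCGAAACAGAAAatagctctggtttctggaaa
Bst2: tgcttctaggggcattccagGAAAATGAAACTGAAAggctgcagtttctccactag
Oas1a: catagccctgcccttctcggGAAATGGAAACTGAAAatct
Ifit1: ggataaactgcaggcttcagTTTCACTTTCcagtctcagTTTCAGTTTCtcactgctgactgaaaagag
Ifit3: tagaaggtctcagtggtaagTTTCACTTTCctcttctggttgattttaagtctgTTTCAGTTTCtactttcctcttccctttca
Igtp: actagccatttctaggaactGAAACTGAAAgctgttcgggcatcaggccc
Irgm2: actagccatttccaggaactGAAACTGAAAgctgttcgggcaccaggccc
Tgtp1: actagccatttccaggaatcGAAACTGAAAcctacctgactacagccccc
The stretches of Igtp and Irgm2 were identical at 48 of 50 aligned positions, and that of Tgtp1 matched them at 34 and 36.

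**Figure D1:**
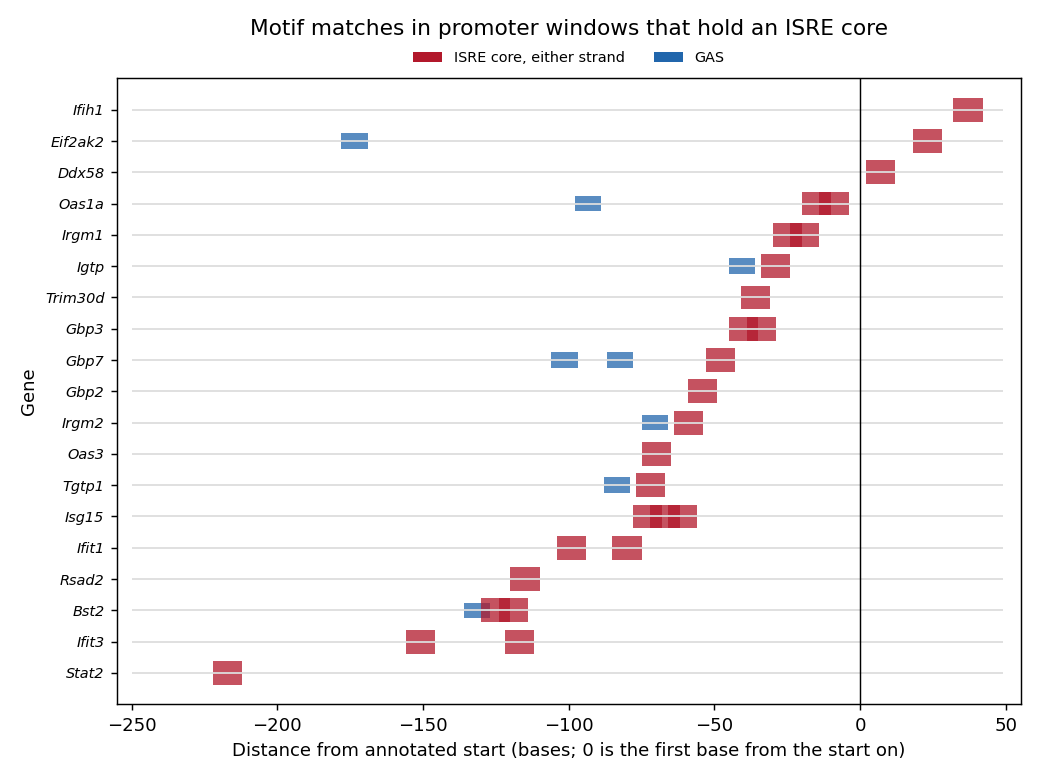
Positions of motif matches (x axis, bases from the annotated start) in the promoter windows of the 19 genes that hold an ISRE core (y axis). Most cores lie upstream of the start, and in Ddx58, Eif2ak2 and Ifih1 the only match lies after it.

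The libraries held between 31638930 and 38745528 reads assigned to transcript records, of which 67.6% to 68.7% were placed uniquely. A count of 0 allowed at most 0.0745 to 0.0987 CPM (the read count relative to library size, after TMM scaling for composition), with 3 reads as the limit. Comparisons were limited to the 13484 genes that averaged 1 CPM or more, and every one of the 49 passed. Differences are given as log2 ratios of CPM, and the 95% intervals of ratios describe counting error alone. PCR copies were not marked by molecular identifiers, so reads are not independent molecules. Marker genes of cardiomyocytes were abundant in each library, with summed levels from 42149 to 62916 CPM over 12 genes, and 10 fibroblast markers summed to between 9970 and 11721 CPM, so genes of fibroblasts were read as well.

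The group as a whole was lowest in the cel-miR-67 library. Summed over the 49 genes, the level was 2545 CPM in mock, 1233 under cel-miR-67, 2118 under hsa-miR-590-3p and 1660 under hsa-miR-199a-3p. The mock library was thus highest, hsa-miR-590-3p lay close to it, and hsa-miR-199a-3p lay between hsa-miR-590-3p and cel-miR-67. In these bulk libraries fewer cells that express the genes and less RNA per cell cannot be told apart.

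**Figure D2:**
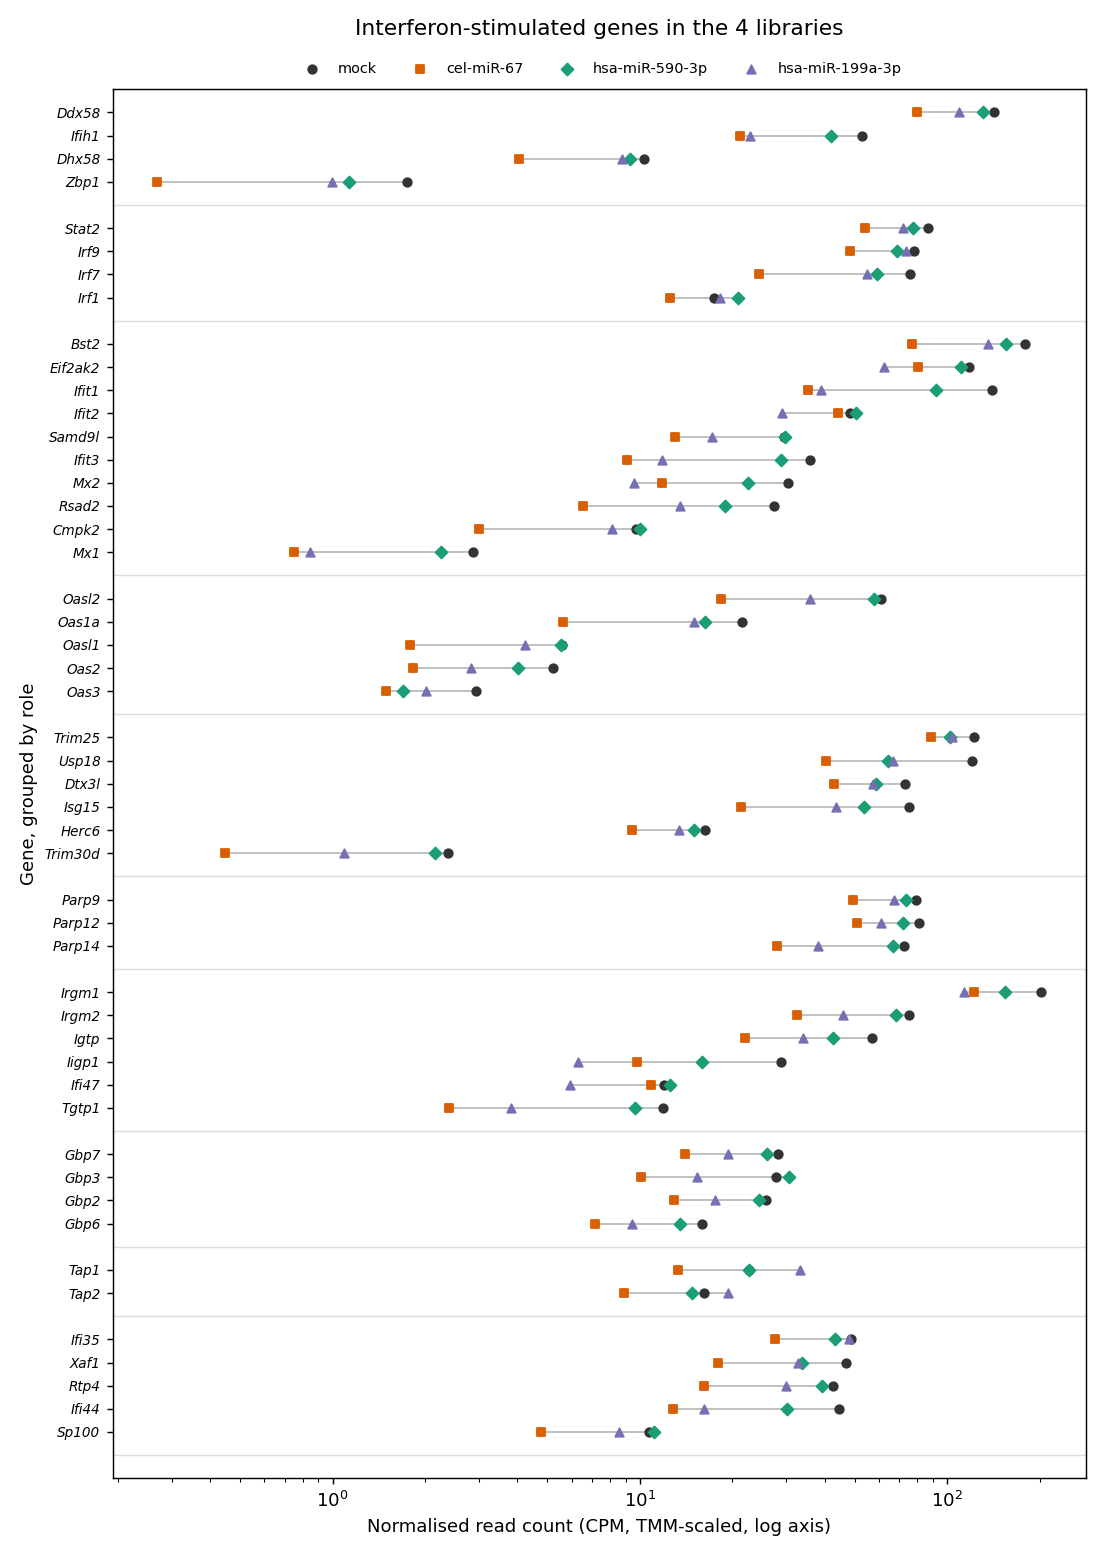
Level of each of the 49 genes (y axis, grouped by role) in the 4 libraries (x axis, CPM on a log scale, 1 point per library). The cel-miR-67 point is the lowest in 43 genes and the mock point the highest in 40.

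Ordering the libraries gene by gene showed the same arrangement in most of the group. The cel-miR-67 library was lowest in 43 of 49 genes, and in 40 of these the next library was apart from it beyond counting error. In Oas3, Mx1 and Ifih1 the lowest pair could not be separated by counting. Over all genes compared, cel-miR-67 was lowest in 21.8%. The 6 remaining genes, Ifit2, Mx2, Eif2ak2, Iigp1, Irgm1 and Ifi47, were lowest under hsa-miR-199a-3p, each beyond counting error, where 35.4% of all genes had their lowest value. These orders are of total reads, and on its few uniquely placed reads Iigp1 was lowest under cel-miR-67. Mock was highest in 40 genes (22.6% of all genes), 31 of them beyond counting error from the next library, hsa-miR-590-3p in 7 (20.4% of all genes), 2 of them beyond counting error, and hsa-miR-199a-3p in Tap1 and Tap2 (34.2% of all genes), both beyond it. The full order from cel-miR-67 through hsa-miR-199a-3p, then hsa-miR-590-3p, up to mock held in 31 genes, and no other order in more than 5.

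The 2 control libraries differed from each other in this group more than either microRNA differed from mock. On total reads all 49 genes were lower under cel-miR-67 than in mock, against 6702 of the 13484 genes compared. With unique reads this held in all 43 members that had a sufficient level, which leave out Irf1. The median log2 ratio of the 49 genes was -1.32, with a range from -2.63 for Zbp1 to -0.13 for Ifit2, and the median of all genes lay at 0.00. At least 2-fold lower were 31 of the 49, and 1.33% of all genes; at least 2-fold higher were 0, and 0.645% of all genes. These 31 made up 17.3% of the 179 genes with such a ratio, and a further list of 46 interferon-induced genes outside the group held 19 more, 10.6% of the 179. The mock and cel-miR-67 samples differ by the mimic and by being separate libraries, and these cannot be told apart with 1 library each.

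Markers of macrophages and lymphocytes, immune cells that respond to and make interferon, were at low levels throughout. Of 16 listed macrophage markers 15 are in the files, and their summed level was 24.5 CPM in mock, 10.8 under cel-miR-67, 8.46 under hsa-miR-590-3p and 10.3 under hsa-miR-199a-3p. All 15 had reads, 4 were abundant enough to compare, and all 4 were lower under cel-miR-67 than in mock, with a median log2 ratio of -0.67. Ptprc, the pan-leukocyte antigen, had 17 reads in mock, 5 under cel-miR-67, 5 under hsa-miR-590-3p and 6 under hsa-miR-199a-3p. Mock was thus highest in the marker sum, as in the interferon-stimulated genes, and hsa-miR-590-3p was lowest in it. Lyz2 contributed most to this sum, with 11.5 CPM in mock, 4.43 under cel-miR-67, 2.60 under hsa-miR-590-3p and 4.32 under hsa-miR-199a-3p. Of the 4 compared markers, Lyz2 and Cd68 were lowest under hsa-miR-590-3p, and Cd14 and Csf1r under hsa-miR-199a-3p. The part of macrophages in the result was not tested. Lymphocyte markers summed to 0.395 to 0.720 CPM, with 4 of 12 genes at 0 reads in every library. Siglech, which defines plasmacytoid dendritic cells, had at most 2 reads. The 6 listed markers of these cells summed to 243 CPM in mock, 146 under cel-miR-67, 227 under hsa-miR-590-3p and 190 under hsa-miR-199a-3p. Most of this sum came from Bst2, itself one of the 49 genes. Irf8, another of the 6, had 37, 37, 67 and 78 reads in the same order. The part of these cells was not tested. Summed endothelial markers were 573 CPM in mock, 562 under cel-miR-67, 567 under hsa-miR-590-3p and 518 under hsa-miR-199a-3p, a sum to which Eng, higher under cel-miR-67 than in mock, contributed most. Of the 10 endothelial markers 8 were lower under cel-miR-67 than in mock (median log2 ratio -0.26), among them Emcn, with 69.9 CPM in mock, 44.1 under cel-miR-67, 49.4 under hsa-miR-590-3p and 36.0 under hsa-miR-199a-3p. The 7 epicardial markers summed to 411 CPM in mock, 324 under cel-miR-67, 404 under hsa-miR-590-3p and 348 under hsa-miR-199a-3p, the library order of the interferon-stimulated genes. Of these 5 were lower under cel-miR-67 than in mock (median log2 ratio -0.34), and Msln, the lowest, had 95.9 CPM in mock, 48.0 under cel-miR-67, 70.3 under hsa-miR-590-3p and 81.1 under hsa-miR-199a-3p. The part of the endothelial and epicardial cells in the result was not tested either.

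**Figure D3:**
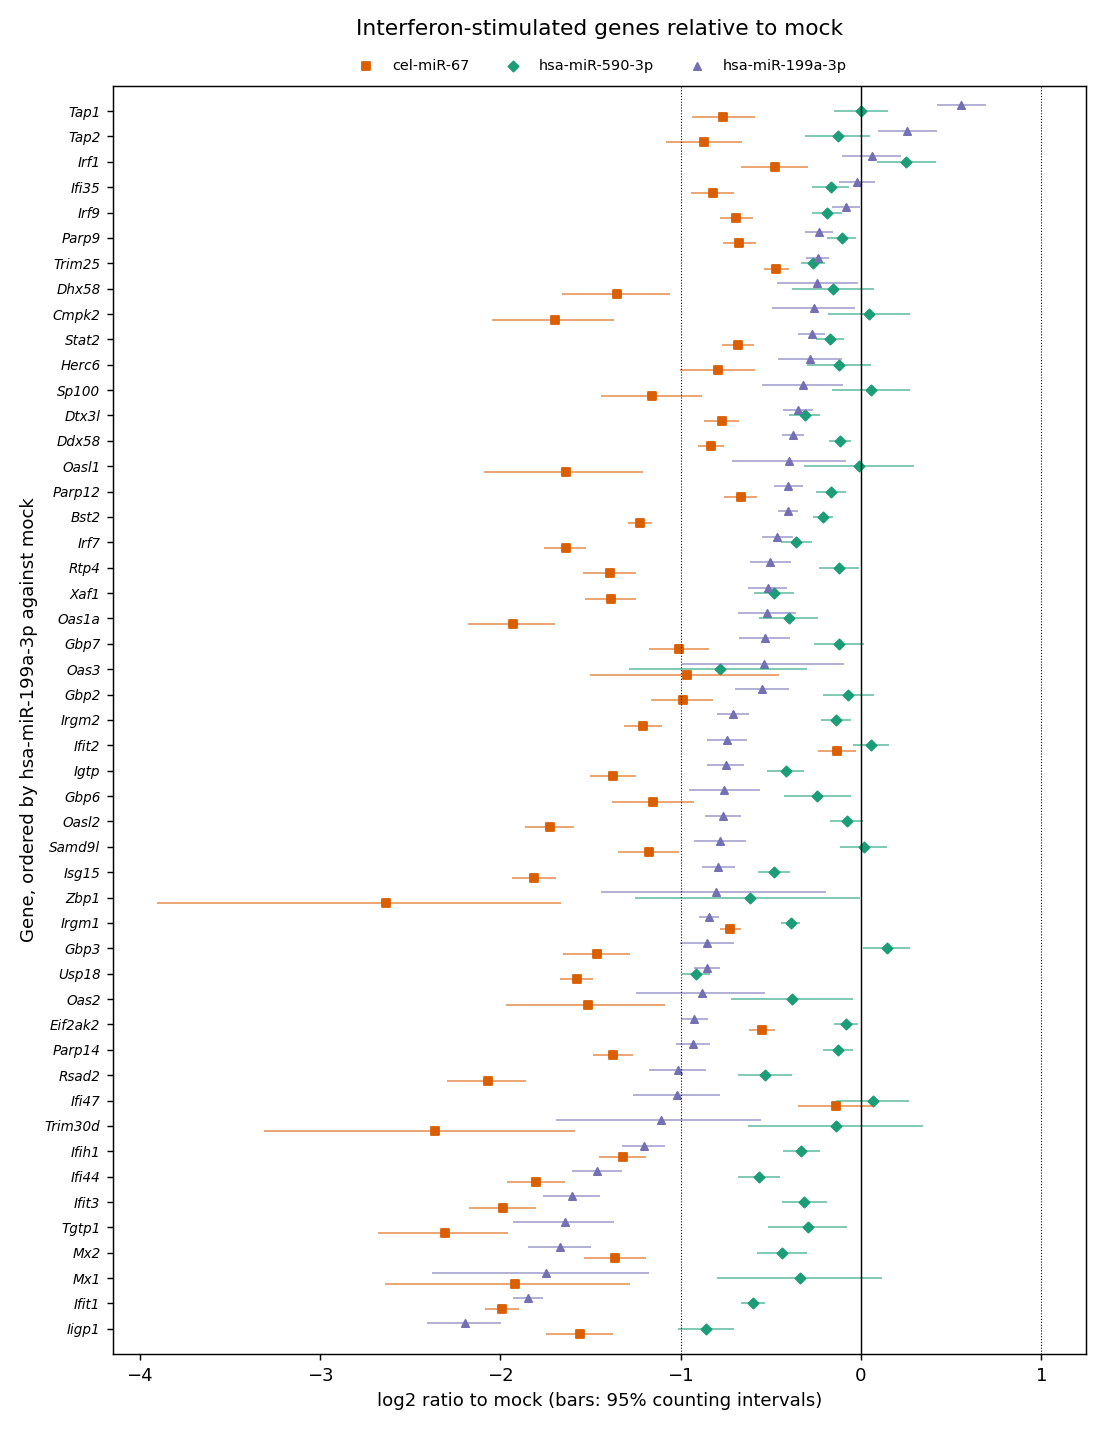
Log2 ratio to mock (x axis, bars are 95% counting intervals) of each gene (y axis, ordered by its ratio under hsa-miR-199a-3p) for the 3 mimics. All 49 cel-miR-67 points lie left of 0, and the hsa-miR-590-3p points stay mostly within 1.5-fold of mock. The hsa-miR-199a-3p points run from near the level of cel-miR-67, or below it as in Iigp1 and Mx2, to above mock.

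Against mock, hsa-miR-590-3p showed small differences. The median log2 ratio was -0.17 (all genes -0.01), 44 of the 49 genes were within 1.5-fold of mock, close to the share of all genes (91.6%), and none was 2-fold lower or higher, where 0.682% and 1.13% of all genes were. The 42 genes below mock (6859 of all 13484) became 37 when libraries were scaled by total reads alone, so the sign of the smaller differences depends on scaling. Against cel-miR-67 all 49 genes were higher under hsa-miR-590-3p (median log2 ratio 0.96, all genes 0.00). Of these 23 were at least 2-fold higher, compared with 1.65% of all genes, and 0 were 2-fold lower, compared with 0.667%. Since a difference was counted for a microRNA only when it was at least 2-fold from both controls in one direction, 0 genes of the group were counted as higher and 0 as lower (0.349% and 0.23% of all genes). The level under hsa-miR-590-3p lay between the controls in 42 genes and above both in 7, and over all 13484 genes in 3758 and 4799.

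The hsa-miR-199a-3p library was more mixed. Its median log2 ratio was 0.51 against cel-miR-67 and -0.71 against mock. At least 2-fold higher than cel-miR-67 were 11 genes (3.97% of all genes), and at least 2-fold lower than mock were also 11 (3.74%). None was 2-fold lower than cel-miR-67 (3.66% of all genes) or 2-fold higher than mock (3.95%). By the criterion of both controls 0 genes were higher and 0 lower, where 2.4% and 2.34% of all genes were. On the log2 scale 24 of the genes lay nearer to mock and 25 nearer to cel-miR-67, while under hsa-miR-590-3p 44 lay nearer to mock.

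**Figure D4:**
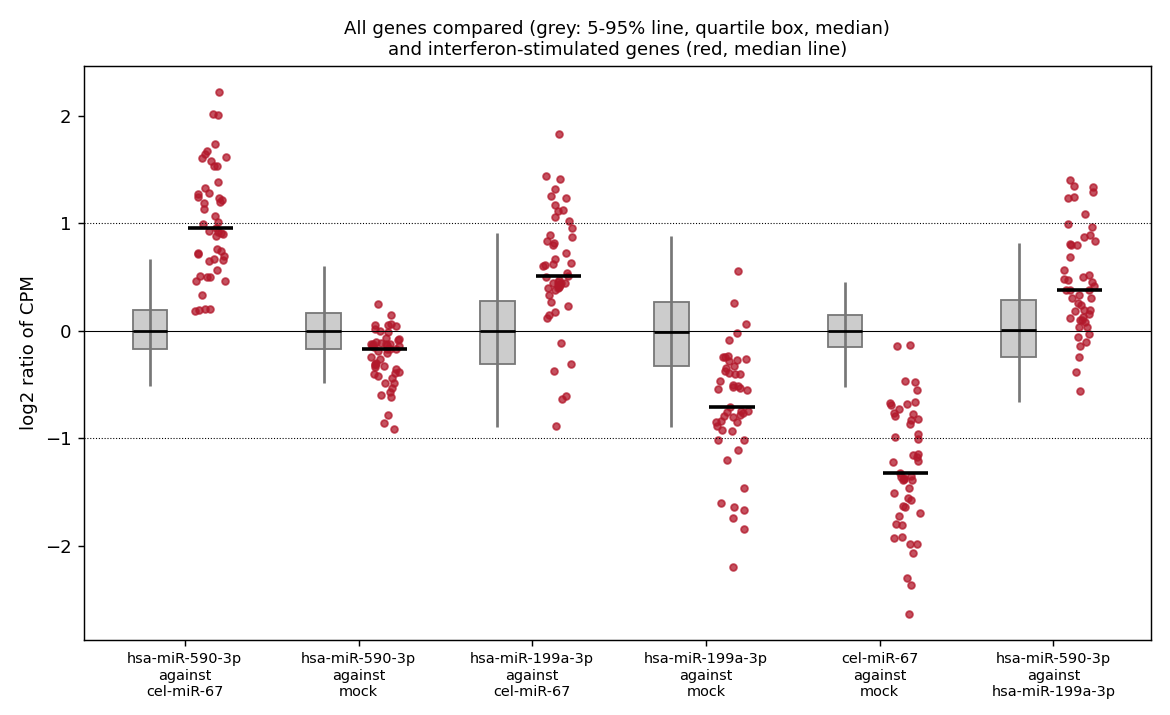
Log2 ratios of CPM (y axis) for the 6 pairs of libraries (x axis), with all 13484 genes compared as grey 5 to 95% lines, quartile boxes and medians, and the 49 interferon-stimulated genes as red points with a median line. The red median stands lowest in cel-miR-67 against mock, at -1.32, and near 0 in hsa-miR-590-3p against mock, at -0.17.

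Among the sensors, Ddx58 encodes RIG-I, Ifih1 encodes MDA5 and Dhx58 encodes LGP2, the related cytoplasmic RNA helicases, and Zbp1 binds left-handed nucleic acid. Of these 4 genes 3 were at least 2-fold lower under cel-miR-67 than in mock, and their median log2 ratio was -1.34. Ddx58, the exception, stood at 142 CPM in mock, 79.9 under cel-miR-67, 131 under hsa-miR-590-3p and 109 under hsa-miR-199a-3p. It was lower under cel-miR-67 than in mock, with a ratio of 0.562 (0.535 to 0.590) and its 95% counting interval in parentheses, as below. Ifih1 stood at 52.9 CPM in mock, 21.2 under cel-miR-67, 42.1 under hsa-miR-590-3p and 22.9 under hsa-miR-199a-3p, so that hsa-miR-199a-3p was close to cel-miR-67 and the other two libraries were near each other. Only 7.13% of the Ifih1 reads were placed uniquely, over its 2 records, and on those reads its ratio of cel-miR-67 to mock was -0.93 on the log2 scale instead of -1.32. Dhx58, at 10.3 CPM in mock, 4.04 under cel-miR-67, 9.28 under hsa-miR-590-3p and 8.74 under hsa-miR-199a-3p, was low only under cel-miR-67. Zbp1 was scarce, with 53 reads in mock, 9 under cel-miR-67, 40 under hsa-miR-590-3p and 40 under hsa-miR-199a-3p, and the 9 reads make its ratio of cel-miR-67 to mock, 0.154 (0.0669 to 0.316), the least precise of the group.

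Of the 4 transcription factors only Irf7 was at least 2-fold lower under cel-miR-67 than in mock, and the median log2 ratio was -0.69. Irf7, the factor that amplifies type I interferon production, stood at 76.0 CPM in mock, 24.4 under cel-miR-67, 59.2 under hsa-miR-590-3p and 55.1 under hsa-miR-199a-3p. Its level under cel-miR-67 was 0.321 (0.296 to 0.348) of mock, and both microRNAs lay well above cel-miR-67, by 2.43 and 2.26 times. The parts of the ISRE-binding complex differed less. Stat2 had 86.9 CPM in mock, 54.2 under cel-miR-67, 77.2 under hsa-miR-590-3p and 71.9 under hsa-miR-199a-3p. Irf9 had 78.0 CPM in mock, 48.3 under cel-miR-67, 68.5 under hsa-miR-590-3p and 73.5 under hsa-miR-199a-3p. Neither was 2-fold apart between any pair of libraries, although both were lowest under cel-miR-67. Irf9 had 2.18% unique reads over 3 records, and with those its ratio of cel-miR-67 to mock was -0.30 in place of -0.69. Irf1, the factor most tied to interferon-gamma, had 17.5 CPM in mock, 12.6 under cel-miR-67, 20.8 under hsa-miR-590-3p and 18.3 under hsa-miR-199a-3p. Its highest library on total reads was hsa-miR-590-3p, and its share of unique reads was 0.867%. These numbered 2 in mock, 7 under cel-miR-67, 6 under hsa-miR-590-3p and 6 under hsa-miR-199a-3p, so on them cel-miR-67 was not below mock.

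The antiviral effectors held 4 of the 7 genes that were at least 2-fold apart between the 2 microRNAs, and 8 of the 10 were at least 2-fold lower under cel-miR-67 than in mock. Ifit1, which binds RNA with an incompletely methylated cap, stood at 139.9 CPM in mock, 35.2 under cel-miR-67, 92.3 under hsa-miR-590-3p and 38.9 under hsa-miR-199a-3p. It was high in mock and hsa-miR-590-3p and low in the other two libraries, with ratios to mock of 0.252 (0.236 to 0.269) under cel-miR-67 and 0.278 (0.262 to 0.295) under hsa-miR-199a-3p. Ifit3, of the same family, had 35.9 CPM in mock, 9.06 under cel-miR-67, 28.9 under hsa-miR-590-3p and 11.8 under hsa-miR-199a-3p. The same libraries were low, and the ratio of hsa-miR-590-3p to hsa-miR-199a-3p was 2.45 (2.19 to 2.73), or 1.31 on the log2 scale with its uniquely placed reads (47.1%). Ifit2, a further family member, had another pattern, at 48.5 CPM in mock, 44.2 under cel-miR-67, 50.4 under hsa-miR-590-3p and 29.0 under hsa-miR-199a-3p. Here cel-miR-67 was near mock and hsa-miR-199a-3p alone was low.

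Mx1 and Mx2, dynamin-like GTPases that trap viral components, also separated the microRNAs. Mx2 stood at 30.5 CPM in mock, 11.8 under cel-miR-67, 22.5 under hsa-miR-590-3p and 9.56 under hsa-miR-199a-3p. Mx1 was scarcer, with 2.86 CPM in mock, 0.747 under cel-miR-67, 2.26 under hsa-miR-590-3p and 0.844 under hsa-miR-199a-3p. Both were lowest, or not separable from lowest, under hsa-miR-199a-3p. The ratio of the microRNAs, hsa-miR-590-3p over the other, was 2.35 (2.08 to 2.66) in Mx2 and 2.68 (1.77 to 4.13) in Mx1. Each has a coding and a non-coding record in the files, and 26.4% and 36.7% of their reads were unique. Rsad2 (viperin), which makes a chain-terminating nucleotide, had 27.4 CPM in mock, 6.52 under cel-miR-67, 19.0 under hsa-miR-590-3p and 13.6 under hsa-miR-199a-3p. Its low library was cel-miR-67, at 0.238 (0.204 to 0.276) of mock, and hsa-miR-199a-3p was intermediate. Cmpk2, the nucleotide kinase gene beside Rsad2 in the genome, had 9.74 CPM in mock, 2.99 under cel-miR-67, 10.04 under hsa-miR-590-3p and 8.12 under hsa-miR-199a-3p, so all libraries except cel-miR-67 were close together.

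Bst2 (tetherin), which holds budding virions at the cell surface, had the highest level per length of the group, with a mean of 159 RPKM over the 4 libraries. Its scaled counts were 180.1 CPM in mock, 77.1 under cel-miR-67, 156 under hsa-miR-590-3p and 136 under hsa-miR-199a-3p. Only cel-miR-67 was far from the rest, at 0.428 (0.408 to 0.449) of mock. Eif2ak2, the kinase PKR that halts translation on double-stranded RNA, had 118 CPM in mock, 80.6 under cel-miR-67, 111 under hsa-miR-590-3p and 62.2 under hsa-miR-199a-3p. Its lowest library was hsa-miR-199a-3p, not cel-miR-67. Samd9l, an interferon-induced restriction factor, had 29.5 CPM in mock, 13.0 under cel-miR-67, 29.8 under hsa-miR-590-3p and 17.2 under hsa-miR-199a-3p, with hsa-miR-590-3p at the level of mock. Over the 10 effectors the median log2 ratio was -1.53 for cel-miR-67 against mock, -0.26 for hsa-miR-590-3p against mock and -0.97 for hsa-miR-199a-3p against mock.

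The oligoadenylate synthetases make the small nucleotides that activate RNase L. In 4 of the 5 genes of this family cel-miR-67 was at least 2-fold lower than mock, and the median log2 ratio, -1.63, was the lowest of any role. Oas1a stood at 21.5 CPM in mock, 5.62 under cel-miR-67, 16.3 under hsa-miR-590-3p and 14.97 under hsa-miR-199a-3p. It was low under cel-miR-67 alone, at 0.262 (0.221 to 0.308) of mock, and hsa-miR-199a-3p was 2.66 (2.26 to 3.15) times cel-miR-67. Its unique share was 47.1%, and on unique reads the cel-miR-67 to mock log2 ratio was -2.05 beside -1.93. Oasl2 had 60.8 CPM in mock, 18.4 under cel-miR-67, 57.7 under hsa-miR-590-3p and 35.8 under hsa-miR-199a-3p. Oasl1, known to restrain Irf7 translation, had 5.59 CPM in mock, 1.79 under cel-miR-67, 5.54 under hsa-miR-590-3p and 4.25 under hsa-miR-199a-3p. In both genes hsa-miR-590-3p was near mock, hsa-miR-199a-3p lower and cel-miR-67 lowest. Oas2, at 5.23 CPM in mock, 1.82 under cel-miR-67, 4.02 under hsa-miR-590-3p and 2.83 under hsa-miR-199a-3p, followed the same order. Oas3, the scarcest of the family, had 89 reads in mock, 50 under cel-miR-67, 60 under hsa-miR-590-3p and 81 under hsa-miR-199a-3p. It was the only one of the family in which hsa-miR-590-3p lay nearer to cel-miR-67.

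In the ISG15 and ubiquitin pathway 3 of 6 genes, Isg15, Usp18 and Trim30d, were at least 2-fold lower under cel-miR-67 than in mock. Isg15, a ubiquitin-like protein that is linked to other proteins and secreted, stood at 75.1 CPM in mock, 21.4 under cel-miR-67, 53.8 under hsa-miR-590-3p and 43.4 under hsa-miR-199a-3p. Its ratio to mock was 0.285 (0.262 to 0.310) under cel-miR-67, 0.716 (0.673 to 0.761) under hsa-miR-590-3p and 0.578 (0.543 to 0.615) under hsa-miR-199a-3p. Its ratio to cel-miR-67 was 2.51 (2.30 to 2.74) under hsa-miR-590-3p and 2.03 (1.86 to 2.21) under hsa-miR-199a-3p. All of these intervals leave out 1, so both microRNAs lay between the controls beyond counting error. Usp18, which removes Isg15 from its targets and blocks the type I receptor, stood at 121 CPM in mock, 40.4 under cel-miR-67, 64.0 under hsa-miR-590-3p and 66.8 under hsa-miR-199a-3p. It was nearly equal under the 2 microRNAs, and both were far below mock, at 0.531 and 0.554. Trim25, the ubiquitin ligase of RIG-I, had the narrowest spread of this set as a ratio, from 88.7 CPM under cel-miR-67 to 123 in mock. Herc6, the ligase that attaches Isg15 in mice, ran from 9.42 to 16.4 CPM, with the same libraries at the ends. For Dtx3l, another ligase, those ends were 42.8 and 73.1 CPM. Trim30d was scarce, with 72 reads in mock, 15 under cel-miR-67, 76 under hsa-miR-590-3p and 44 under hsa-miR-199a-3p, of which 15.5% were unique.

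The PARP genes encode ADP-ribosyltransferases, and 1 of 3, Parp14, was at least 2-fold lower under cel-miR-67 than in mock. Parp14 stood at 72.7 CPM in mock, 27.99 under cel-miR-67, 66.6 under hsa-miR-590-3p and 38.1 under hsa-miR-199a-3p, with hsa-miR-590-3p near mock and hsa-miR-199a-3p nearer to cel-miR-67. Parp9, the partner of Dtx3l, had 79.1 CPM in mock, 49.5 under cel-miR-67, 73.5 under hsa-miR-590-3p and 67.3 under hsa-miR-199a-3p. Parp12 had 80.8 CPM in mock, 50.9 under cel-miR-67, 72.0 under hsa-miR-590-3p and 61.1 under hsa-miR-199a-3p. Parp9 and Parp12 were lower under cel-miR-67 by less than 2-fold, with log2 ratios to mock of -0.68 and -0.67.

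The immunity-related GTPases, which gather on pathogen vacuoles in mouse cells, held 3 of the 7 genes that were at least 2-fold higher under hsa-miR-590-3p than in the hsa-miR-199a-3p library. Lower under cel-miR-67 than in mock by at least 2-fold were 4 of the 6. Irgm1, a regulator of the family, was the most abundant, at 203 CPM in mock, 123 under cel-miR-67, 155 under hsa-miR-590-3p and 113 under hsa-miR-199a-3p. Its lowest library was hsa-miR-199a-3p, with cel-miR-67 close above. The effectors Iigp1, Ifi47 and Tgtp1 were those 3 genes. Iigp1 stood at 28.8 CPM in mock, 9.78 under cel-miR-67, 15.9 under hsa-miR-590-3p and 6.28 under hsa-miR-199a-3p. On total reads even hsa-miR-590-3p, at 0.552 (0.495 to 0.614) of mock, was well below it, but the unique share was 1.49%. These unique reads numbered 9 in mock, 1 under cel-miR-67, 16 under hsa-miR-590-3p and 4 under hsa-miR-199a-3p. Few as they were, they did not keep the order of the total reads. Ifi47 had 12.01 CPM in mock, 10.9 under cel-miR-67, 12.6 under hsa-miR-590-3p and 5.91 under hsa-miR-199a-3p, and as in Ifit2 the controls were close and hsa-miR-199a-3p alone was low. Tgtp1 stood at 11.9 CPM in mock, 2.39 under cel-miR-67, 9.68 under hsa-miR-590-3p and 3.80 under hsa-miR-199a-3p, with a ratio of cel-miR-67 to mock of 0.201 (0.156 to 0.257). Of its reads 12.8% were unique, and on those the log2 ratio was -1.81 in place of -2.31. Igtp and Irgm2 are regulators whose promoter stretches, shown above, are almost identical. Igtp had 56.9 CPM in mock, 21.9 under cel-miR-67, 42.6 under hsa-miR-590-3p and 33.9 under hsa-miR-199a-3p. Irgm2 had 75.2 CPM in mock, 32.5 under cel-miR-67, 68.2 under hsa-miR-590-3p and 46.0 under hsa-miR-199a-3p. Their order of libraries was the same, although Irgm2 was closer to mock under hsa-miR-590-3p, at 0.907 against 0.748 for Igtp.

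The guanylate-binding proteins, larger GTPases that attack microbial membranes, resembled each other, and 3 of 4 were at least 2-fold lower under cel-miR-67 than in mock. Gbp3 stood at 27.8 CPM in mock, 10.1 under cel-miR-67, 30.7 under hsa-miR-590-3p and 15.4 under hsa-miR-199a-3p. It was slightly higher under hsa-miR-590-3p than in mock, at 1.10 (1.01 to 1.21), while hsa-miR-199a-3p lay between the controls, at 1.53 (1.34 to 1.75) times cel-miR-67. Gbp7 had 28.2 CPM in mock, 13.99 under cel-miR-67, 25.9 under hsa-miR-590-3p and 19.4 under hsa-miR-199a-3p, with 0.563% unique reads over 2 records. These unique reads numbered 2 in mock, 2 under cel-miR-67, 6 under hsa-miR-590-3p and 7 under hsa-miR-199a-3p. The 2 records differed in their order of libraries, with cel-miR-67 lowest in 1 and hsa-miR-199a-3p lowest in the other. Gbp6 had 15.96 CPM in mock, 7.18 under cel-miR-67, 13.5 under hsa-miR-590-3p and 9.44 under hsa-miR-199a-3p, with 39.9% unique reads. Gbp2 had 25.7 CPM in mock, 12.9 under cel-miR-67, 24.5 under hsa-miR-590-3p and 17.6 under hsa-miR-199a-3p, its level under cel-miR-67 being just above the 2-fold limit at 0.504 of mock. On reads summed over records cel-miR-67 was lowest and hsa-miR-199a-3p next in each of the 4 genes, and the median log2 ratio of hsa-miR-590-3p to mock was -0.10.

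Tap1 and Tap2 form the transporter that carries peptides into the endoplasmic reticulum for antigen presentation, and they alone in the group were highest under hsa-miR-199a-3p. Tap1 stood at 22.6 CPM in mock, 13.3 under cel-miR-67, 22.6 under hsa-miR-590-3p and 33.3 under hsa-miR-199a-3p. Tap2 had 16.2 CPM in mock, 8.88 under cel-miR-67, 14.8 under hsa-miR-590-3p and 19.4 under hsa-miR-199a-3p. Relative to mock the hsa-miR-199a-3p library was at 1.47 (1.34 to 1.61) in Tap1 and 1.20 (1.07 to 1.34) in Tap2, beyond counting error but under 2-fold. Tap1 has 6.41% unique reads over 2 records, and on these its log2 ratio of hsa-miR-199a-3p to mock was 0.25 instead of 0.56. H2-K1, an antigen-presenting molecule supplied by this transporter, outside the group and singled out after its values were seen, had 119 CPM in mock, 78.9 under cel-miR-67, 111 under hsa-miR-590-3p and 160.2 under hsa-miR-199a-3p. Psmb9, an immunoproteasome subunit also outside it, had 1.55 CPM in mock, 0.658 under cel-miR-67, 1.27 under hsa-miR-590-3p and 3.20 under hsa-miR-199a-3p. Both were likewise highest under hsa-miR-199a-3p. B2m, the light chain of H2-K1, was highest in mock, with 311 CPM in mock, 217 under cel-miR-67, 265 under hsa-miR-590-3p and 248 under hsa-miR-199a-3p.

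The last 5 genes have varied roles, and 4 of them, all but Ifi35, were at least 2-fold lower under cel-miR-67 than in mock. Ifi44, which is used as a marker of interferon response, stood at 44.6 CPM in mock, 12.8 under cel-miR-67, 30.1 under hsa-miR-590-3p and 16.2 under hsa-miR-199a-3p. It was low under cel-miR-67 and hsa-miR-199a-3p, at 0.287 (0.257 to 0.320) and 0.363 (0.330 to 0.398) of mock. Ifi35, a partner of Nmi, had 48.7 CPM in mock, 27.5 under cel-miR-67, 43.3 under hsa-miR-590-3p and 47.9 under hsa-miR-199a-3p, where cel-miR-67 alone was low. Xaf1, a pro-apoptotic protein, had 47.0 CPM in mock, 17.9 under cel-miR-67, 33.6 under hsa-miR-590-3p and 32.8 under hsa-miR-199a-3p, with the 2 microRNAs almost equal between the controls. Rtp4, a chaperone of membrane receptors, had 42.5 CPM in mock, 16.2 under cel-miR-67, 39.1 under hsa-miR-590-3p and 30.02 under hsa-miR-199a-3p. Sp100, a nuclear body protein, had 10.7 CPM in mock, 4.78 under cel-miR-67, 11.1 under hsa-miR-590-3p and 8.54 under hsa-miR-199a-3p. In both, hsa-miR-590-3p was close to mock and cel-miR-67 lowest.

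The direct comparison of the microRNAs uses no control library. The median log2 ratio of hsa-miR-590-3p to hsa-miR-199a-3p was 0.38, with a range from -0.56 for Tap1 to 1.41 for Mx1, and 42 of the 49 genes were higher under hsa-miR-590-3p (6789 of all 13484). At least 2-fold higher were 7 genes, Ifit1, Ifit3, Mx1, Mx2, Iigp1, Ifi47 and Tgtp1, compared with 2.7% of all genes, and at least 2-fold lower were 0 (1.87% of all genes). Within 1.5-fold of each other were 33 of the 49, and 82.9% of all genes. By role, the median was highest in the immunity-related GTPases (0.83) and antiviral effectors (0.82), near 0 in the transcription factors (0.10) and the ISG15 pathway (0.10), and below 0 in the peptide transporter (-0.47).

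**Figure D5:**
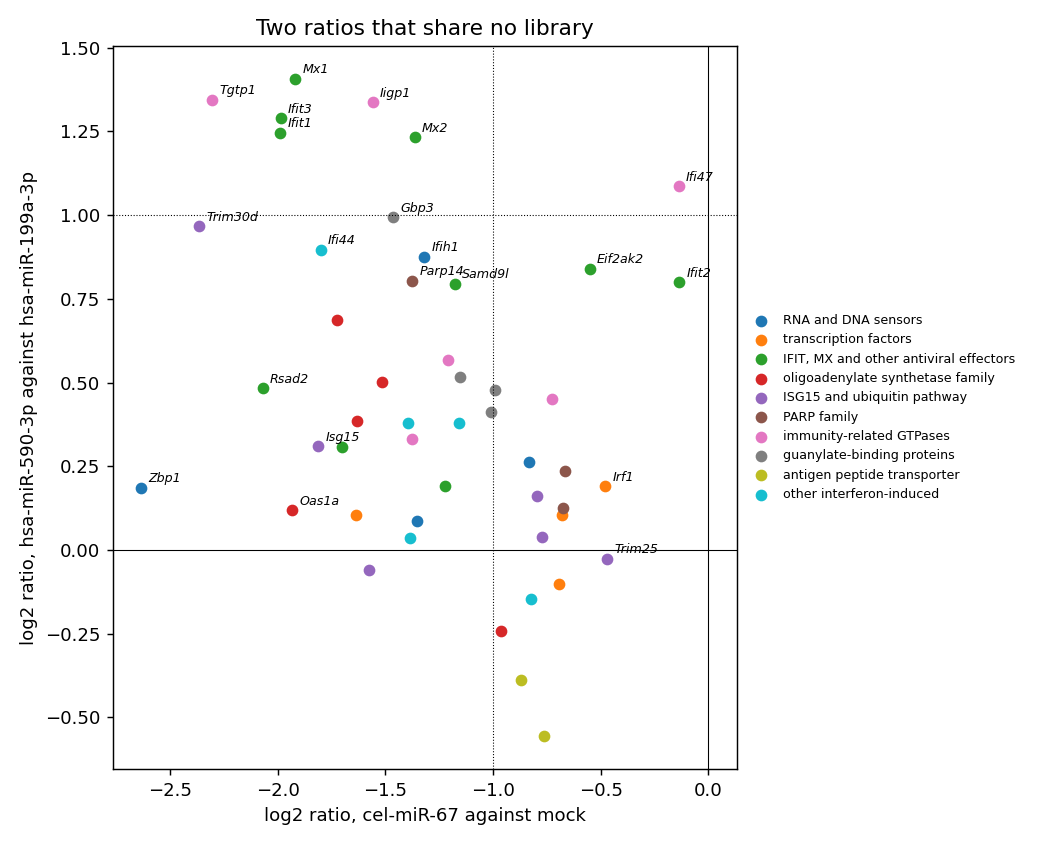
Each of the 49 genes by its log2 ratio of cel-miR-67 to mock (x axis) and of hsa-miR-590-3p to hsa-miR-199a-3p (y axis), coloured by role, with dotted lines at 2-fold. The 7 genes above the upper dotted line are antiviral effectors and immunity-related GTPases. Genes of other roles, such as Gbp3 and Trim30d, lie just below that line, and Bst2 and Igtp of the 2 named roles lie lower. Tap1 and Tap2 lie below 0 on the y axis.

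Ratios of cel-miR-67 to mock and of hsa-miR-590-3p to hsa-miR-199a-3p share no library. Across the 49 genes they had a Pearson r of -0.36 and a Spearman rho of -0.38, and across all 13484 genes -0.08 and -0.05. This is a description across genes of the same 4 libraries, and genes are not independent replicates. Genes with an ISRE core in their window had a median log2 ratio of cel-miR-67 to mock of -1.32 (19 genes), those without one -0.81 (18 genes), and those with no window -1.38 (12 genes). For hsa-miR-590-3p against hsa-miR-199a-3p the same medians were 0.48, 0.21 and 0.44, so the genes without a window lay with those that hold the core.

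The rest of the pathway was examined through lists of other genes. Interferon genes themselves were almost unread: of 23 listed, 19 are in the files, 15 had no read in any library and none was abundant enough to compare. Ifnb1, the first interferon made by most cells, had 1 read in each library except hsa-miR-199a-3p, where it had 0. Ifng, the type II interferon, had 0, 1, 0 and 3 reads in the order used above. Summed levels of the interferon genes, 0.0566 to 0.362 CPM, say nothing on protein or on earlier time points.

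Of 10 compared genes for interferon receptors and their signalling, 0 were 2-fold apart in any comparison, and the median log2 ratio of cel-miR-67 to mock was -0.02. In addition, 9 compared negative regulators and 14 compared sensing and adaptor genes had 0 past 2-fold in each comparison, with median log2 ratios of cel-miR-67 to mock of -0.12 and -0.04. With at most 3.97% of all genes past 2-fold in one direction, counts of 0 in lists this short are near the background. Smaller differences were present, some of them between the controls. In the receptor and signalling genes the log2 ratio of cel-miR-67 to mock ran from -0.767 to 0.198, with 6 below 0 and 4 above. It ran from -0.847 to 0.272 in the negative regulators, with 7 below 0 and 2 above. In the sensing and adaptor genes it ran from -0.805 to 0.331, with 8 below 0 and 6 above. Il10rb, a receptor chain, was low under hsa-miR-590-3p alone, with 49.8 CPM in mock, 48.6 under cel-miR-67, 34.6 under hsa-miR-590-3p and 52.6 under hsa-miR-199a-3p.

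A further 46 interferon-induced genes outside the group, compared in the same way, were like it under cel-miR-67 and less so under the microRNAs. All 46 were lower under cel-miR-67 than in mock, with a median of -0.86, and 19 were at least 2-fold lower. Under hsa-miR-199a-3p 15 of them lay above both controls (3 in the group), against 5419 of all 13484 genes. Their median log2 ratio of hsa-miR-199a-3p to mock was -0.34 (-0.71 in the group). Under hsa-miR-590-3p 13 lay above both controls (7 in the group), against 4799 of all genes. In 15 of the 46 hsa-miR-590-3p was lower than hsa-miR-199a-3p (7 in the group). Cxcl10, a chemokine that draws T cells, had 9.51 CPM in mock, 2.54 under cel-miR-67, 10.3 under hsa-miR-590-3p and 2.71 under hsa-miR-199a-3p. It was high in mock and hsa-miR-590-3p and low in the other two, with a ratio between the microRNAs of 3.80 (3.06 to 4.76). Ddx60, a helicase of RNA sensing, had 36.5 CPM in mock, 16.5 under cel-miR-67, 28.7 under hsa-miR-590-3p and 6.75 under hsa-miR-199a-3p. Cd274, the checkpoint ligand PD-L1, had 5.496 CPM in mock, 2.66 under cel-miR-67, 3.99 under hsa-miR-590-3p and 1.29 under hsa-miR-199a-3p. Of the 46, Ddx60 and Cd274 were at least 2-fold lower under hsa-miR-199a-3p than in both controls (2.34% of all genes). Psmb9 was at least 2-fold higher than both (2.4% of all genes). In lists this short these counts, and the 0 of the group, are near the background.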

How the data were processed

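Per the labels' protocols, total RNA of 4 cardiomyocyte cultures was sequenced. Per the file headers, the authors deposited for each library an RPKM value, a total read count and a unique read count for each of 36065 RefSeq transcript records. The submitters' processing notes name CASAVA 1.8 and mm8 without a role, and the aligner was not given in the sources used here. Total reads include reads shared between records, so members with low unique shares (13 of 49 under 50%) are uncertain. Samples were grouped by the treatment in their labels.

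Total reads were summed over records with the same symbol. The 49 members matched 61 records, 10 of them with 2 or more. Counts were scaled by TMM (edgeR 4.0.16, R 4.3.3, used for scaling factors only). Log2 ratios had a prior count of 0.5, and genes that averaged 1 CPM or more were kept. Ratios have exact conditional binomial (Clopper-Pearson) 95% intervals. A difference was counted at 2-fold, for each microRNA against both controls. Calculations used Python 3.11.15, numpy 2.4.6, pandas 2.3.3 and scipy 1.17.1, plots matplotlib 3.10.9. The calculation was tested on simulated data.

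The members, gene lists and alternatives were chosen with earlier results of these data known. Members were named with values when at least 2-fold apart in any comparison with 50 reads in the higher library, when among the 2 most abundant of their role, or when under 50% unique. Ifit2, Oas3, Herc6, Dtx3l and Gbp2 fall outside this rule and were added so that each member is accounted for. For the other lists, the interferon genes, the most abundant gene and the extreme ratios could be named, and Cd274 was named after its values were seen. 1 gene that the rule selects is not reported here. Alternatives were total-count and DESeq2 1.42.0 median-of-ratios scaling, other minimum levels, a prior count of 2, unique reads, current symbols, the RPKM of the authors (pseudocount 0.01), a 1.5-fold criterion and cel-miR-67 as the only control. Sequences are from RefSeq tables (GRCm38.p6) and share no coordinates with the build of the files. No promoter stretch is printed for genes without a window.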

Additional observations from a re-analysis of the deposited data

How the results depend on the processing

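The medians kept their sign under every alternative run. Of 1728 single-gene values 0 that were at least 2-fold changed sign, while smaller differences did (Oas3 under hsa-miR-590-3p against cel-miR-67 went from 0.18 to -0.08 on unique reads, and genes below mock under hsa-miR-590-3p from 42 to 37 with total-count scaling or RPKM), and 122 moved by more than their counting interval, 52 of them under total-count scaling, 51 with the RPKM of the authors and 19 with unique reads. For the hsa-miR-199a-3p to mock median of -0.71, the alternatives that moved it gave -0.59 (RPKM), -0.59 (total-count scaling) and -0.55 (minimum of 5 CPM). The hsa-miR-590-3p to mock median of -0.17 became -0.076 both with RPKM and with total-count scaling. Total-count scaling shifts the median of all genes by 0.10 against mock for hsa-miR-199a-3p and by 0.09 for hsa-miR-590-3p. With a 1.5-fold criterion the genes higher under hsa-miR-590-3p than hsa-miR-199a-3p went from 7 to 16, and those lower under hsa-miR-199a-3p than both controls from 0 to 3, beside 10.6% and 8.37% of all genes. With cel-miR-67 as the only control, the genes counted as higher went from 0 to 23 for hsa-miR-590-3p and from 0 to 11 for hsa-miR-199a-3p. Of the 31 genes at least 2-fold lower under cel-miR-67 than in mock, 30 remained with total-count scaling (Gbp7 did not) and 25 with unique reads, where only 43 members had a sufficient level. Mock was the highest library in 34 genes instead of 40 with total-count scaling.

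No paired analysis was possible because each condition has 1 library. The spread between cultures is unknown for every value, a difference between libraries and one between treatments cannot be told apart, and depth limits mainly Zbp1, Trim30d, Oas3 and Mx1.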
